A study of Mus musculus with 6 samples.

Results

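The genes described here are Trp53, which encodes the transcription factor p53, its inhibitors Mdm2 and Mdm4, and 7 genes that p53 is known to activate (Ccng1, Perp, Sesn1, Sesn2, Zmat3, Phlda3 and Trp53inp1). They are 10 of the 22969 gene names in the RNA-seq table and were found by exact match of the name, with 1 row per gene. RNA was sequenced from E14Tg2a cells, a mouse Embryonic Stem Cell (ESC) line, at passages 37 to 40. ESCs kept pluripotent with Leukemia Inhibitory Factor (LIF) gave 3 samples, each of RNA from pooled plates. Neuronal cells (NCs), the study's name for monolayers of the same line that had received 1 μM Retinoic Acid (RA) in LIF-free medium for 2 days (48 h), gave the other 3 samples. LIF withdrawal and RA differ together between the groups, and their parts cannot be told apart.

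The authors deposited 1 FPKM value (a fragment count scaled to transcript length and to the mapped fragments of the library) per gene and condition, so each value below is the authors' value for the condition, with no SD or n. The spread between the 3 samples of a group could not be computed from these values, so no test was made here, and "lower" or "higher" compares 2 pooled values. A gene was counted when it differed by at least 2-fold between conditions. Of the 12785 genes with a mean FPKM of at least 1, 9.93% were at least 2-fold lower in NCs and 11.1% were at least 2-fold higher. Their median log2 ratio of NC over ESC was -0.04, and all 10 genes passed the FPKM filter. In bulk RNA, fewer cells of a type and less RNA per cell cannot be told apart.

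p53 is a sequence-specific activator that is held at a low protein level in unstressed cells, because MDM2 marks it for destruction and MDM4 masks its activation domain. Stress kinases and the ARF protein break this hold, and p53 then switches on genes for cell cycle arrest, cell death, DNA repair and metabolic defence. Mdm2 is itself a p53 target, which closes a feedback loop. Mouse ESCs are known for abundant p53, much of which lies in the cytoplasm, and for a weak arrest at the G1 checkpoint. An mRNA level does not measure p53 protein or its activity.

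The labels of the conditions were first compared with marker genes. All 10 pluripotency markers were at least 2-fold lower in NCs, among them Pou5f1 (OCT4), with 832 FPKM in ESCs and 37.1 in NCs. All 8 RA response markers were at least 2-fold higher, and Cyp26a1 had 0.874 FPKM in ESCs and 215 in NCs. Neural markers were mixed, with 5 of 10 higher in NCs. The neural progenitor gene Pax6 had 3.64 FPKM in ESCs and 65.2 in NCs, while the neuronal genes Tubb3 (33.4 and 7.54 FPKM) and Neurod1 (10.1 and 0.259 FPKM) were lower in NCs, against the neuronal label. The summed FPKM of 8 primitive endoderm markers was 17.0 in ESCs and 39.9 in NCs, with all 8 higher in NCs. For 8 fibroblast markers the sum was 43.8 and 63.3, with 5 higher in NCs and Lum listed at 0 in ESCs. The sum of 6 mesoderm markers was 3.89 and 3.02 FPKM, and 5 of them were under 1 FPKM in both conditions. For 6 trophectoderm markers it was 40.2 and 16.3 FPKM, although 4 of the 6 were higher in NCs. That lower sum rested on Tfap2c (34.004 and 4.59 FPKM), while Gata3 had 0.204 and 4.02 FPKM. The part of such cells in the values below was not tested.

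Of the 10 genes, 8 had the lower FPKM in NCs and 2 the higher. Mdm4 and Trp53inp1 were at least 2-fold lower, which is 2 of 10 against the 9.93% of all genes, and none was at least 2-fold higher. With a 1.5-fold limit Trp53 joined them as the third gene lower in NCs, so that 3 of 10 stood against 18.8% of all genes, and 0 of 10 were higher, against 19.3% of all genes. Shares over so few genes are not set apart from the background here. The median log2 ratio of the 10 genes was -0.47.

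**Figure D1:**
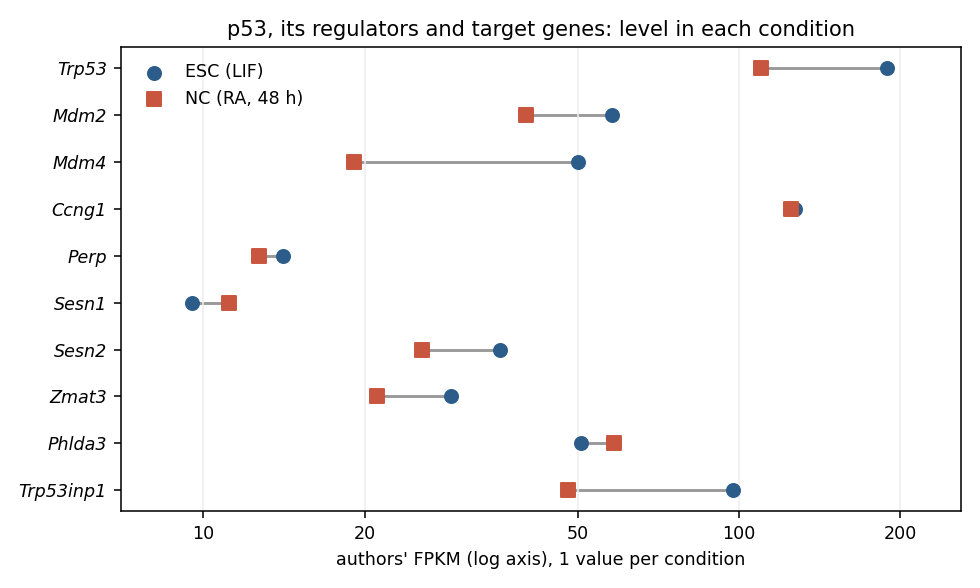
Authors' FPKM of each gene on a log axis, with 1 circle for ESCs and 1 square for NCs and a line joining them. The squares lie left of the circles for 8 genes, with the widest gap for Mdm4, while Sesn1 and Phlda3 show the reverse and the points of Ccng1 nearly coincide.

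Trp53 was the most abundant of the 10 genes in ESCs. It lies on chromosome 11 (69580359 to 69591873, plus strand of GRCm38, the assembly that mm10 also names). Its FPKM was 189 in ESCs and 110.2 in NCs, a log2 ratio of -0.78 (1.72-fold lower). By FPKM it ranked 493rd of the 12785 genes in ESCs and 735th in NCs, so its transcript stayed among the top 5.75% of genes. A ratio as low or lower was seen for 13.4% of all genes. In the annotated transcripts, 3.88% of the 50-base words of Trp53 also occur in other genes, and the gene that shares most of them is the pseudogene Trp53-ps.

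The other genes of the p53 family had little RNA. Trp73, which encodes the p53 relative p73, had 2.51 FPKM in ESCs and 0.155 in NCs, 16.2-fold lower. Trp63 (p63) was at 0.00900 and 0.0234 FPKM, so no ratio is given. Both values are under the estimated value of 3 fragments in 1 kb of transcript (0.0413 FPKM in ESCs and 0.0405 in NCs). Trp53 was therefore the family member with nearly all of the RNA in both conditions.

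The 2 p53 inhibitors among the 10 genes were both lower in NCs, but by different amounts. Mdm2, the E3 ubiquitin ligase of p53, lies on chromosome 10 (117688875 to 117710758, minus strand). It had 57.9 FPKM in ESCs and 40.1 in NCs, a log2 ratio of -0.53 (1.45-fold lower). Mdm4, whose protein binds the same domain of p53 but is a poor ubiquitin ligase by itself, lies on chromosome 1 (132959484 to 133030561, minus strand). It had 50.1 FPKM in ESCs and 19.1 in NCs, a log2 ratio of -1.39 (2.62-fold lower), the lowest ratio of the 10 genes. Only 6.11% of all genes had a ratio as low as that of Mdm4. Its rank by FPKM went from 1978th to 4531st. Of the 50-base words of Mdm4, 7.30% also occur in other genes, with Mdm4-ps sharing the most. The Mdm4 span also holds the annotated pseudogene Gm29257 over 639 bases on the opposite strand. Reads of it could not be set apart here.

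A ratio of 2 genes within a condition does not depend on how the conditions were scaled. Mdm4 had 0.865 times the FPKM of Mdm2 in ESCs and 0.477 times in NCs, so the balance of the inhibitors moved by 1.81-fold toward Mdm2. The sum of Mdm2 and Mdm4 was 108 FPKM in ESCs and 59.2 in NCs. Against Trp53 this sum was nearly level, at 0.571 times Trp53 in ESCs and 0.538 times in NCs. Mdm2 by itself was at 0.306 and 0.364 times Trp53, and Mdm4 at 0.265 and 0.174 times.

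**Figure D2:**
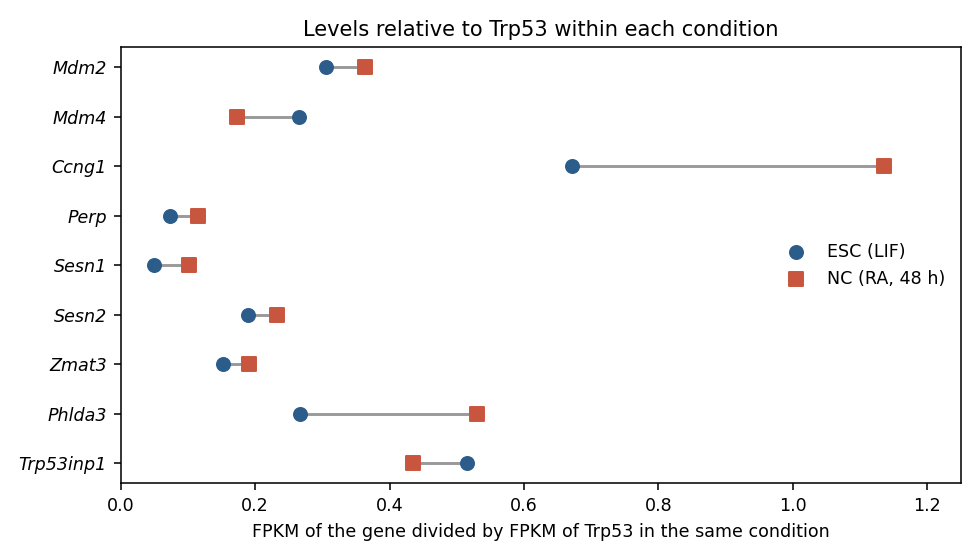
FPKM of each other gene divided by that of Trp53 in the same condition, with 1 circle for ESCs and 1 square for NCs. Ccng1 has the widest gap on this linear axis, from 0.671 to 1.14 times Trp53, but as a fold Sesn1 (0.0502 to 0.101) and Phlda3 (0.267 to 0.530) differed more, and Mdm4 and Trp53inp1 are the genes whose square lies left of the circle.

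To show which of these genes carry a p53-like element at their start, promoter windows were read from RefSeq (GRCm38.p6), each with 250 bases before and 50 bases after an annotated start. The table held 9 windows for 7 of the 10 genes, and none for Perp, Zmat3 and Trp53inp1, which were not searched. Sequence outside the windows was not searched either. The p53 consensus, made of a repeated 10-base unit with no spacer, was searched with the core C and G of each unit kept and at most 3 mismatches in its 20 bases. It reads the same on both strands. Such a site was present in 3 of the 9 windows, for Ccng1, Sesn1 and Trp53, and in 1.38% of all 32851 windows. The sites are shown in capitals with 20 bases on each side, and that of Cdkn1a, the best known p53 target, is added for comparison.
Ccng1 (chr11:40755442-40755501, minus strand): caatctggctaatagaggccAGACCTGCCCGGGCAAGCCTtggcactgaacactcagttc
Sesn1 (chr10:41887246-41887305, plus strand): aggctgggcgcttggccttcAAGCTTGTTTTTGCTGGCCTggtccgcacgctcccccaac
Trp53 (chr11:69580264-69580323, plus strand): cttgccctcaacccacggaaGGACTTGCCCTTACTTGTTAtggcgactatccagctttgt
Cdkn1a (chr17:29090908-29090967, plus strand): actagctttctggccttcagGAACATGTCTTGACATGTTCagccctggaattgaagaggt

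The Ccng1 site had 1 mismatch to the consensus and spanned positions -195 to -176 relative to the start. A site with at most 1 mismatch was found in 0.0670% of all windows. The site of Cdkn1a also had 1 mismatch, and those of Sesn1 and Trp53 had 3 each. The Sesn1 site lies before the downstream of its annotated starts, and the window of the upstream start held none. These matches are letters only and do not show that p53 was bound.

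Ccng1, with the closest match of the 7 genes searched, was nearly level between the conditions in FPKM as deposited. It encodes cyclin G1, which recruits the phosphatase PP2A to MDM2 and so acts back on p53, and lies on chromosome 11 (40748552 to 40755311, minus strand). Its FPKM was 127 in ESCs and 125 in NCs, a log2 ratio of -0.02. The direction was not stable, since it turned to higher in NCs under each of the 3 other scalings of the conditions, with a log2 ratio of up to 0.27 after rescaling to TPM (transcript shares that sum to the same total in both conditions). Its paralog Ccng2 had 20.6 and 19.7 FPKM. Relative to Trp53 in the same condition, Ccng1 was at 0.671 times in ESCs and 1.14 times in NCs, and so was the one gene of the 10 that exceeded Trp53 in NCs.

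Of the 3 targets described next, which have roles in cell death, Trp53inp1 was lower in NCs, Phlda3 was higher, and Perp was slightly lower as deposited but higher after rescaling to TPM. Trp53inp1 encodes a stress-induced nuclear protein that promotes phosphorylation of p53 and lies on chromosome 4 (11156431 to 11174379, plus strand). It had 97.5 FPKM in ESCs and 47.9 in NCs, a log2 ratio of -1.03 (2.04-fold lower), just past the limit. It was within 2-fold, with log2 ratios from -0.99 to -0.73, when the conditions were centred or rescaled in other ways. Its paralog Trp53inp2, an autophagy factor, was level at 10.6 and 10.8 FPKM.

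Perp, which encodes a small membrane protein of cell junctions, lies on chromosome 10 (18845020 to 18857073, plus strand) and had 14.0 FPKM in ESCs and 12.7 in NCs. Its log2 ratio was -0.15 and became 0.15 after rescaling to TPM. Its relative Pmp22, the gene of a myelin protein, had 5.28 FPKM in ESCs and 102 in NCs. The ratio of Pmp22 to Perp was thus 0.376 in ESCs and 8.05 in NCs. Tmem47, a further relative, had 15.3 and 17.2 FPKM.

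Phlda3, whose pleckstrin homology domain competes with AKT for membrane lipids, lies on chromosome 1 (135766119 to 135769136, plus strand). It was one of the 2 genes with the higher value in NCs, 58.4 against 50.6 FPKM in ESCs, a log2 ratio of 0.21. Phlda1 had 4.90 FPKM in ESCs and 41.3 in NCs (8.43-fold higher), while Phlda2 had 49.1 and 38.4 FPKM. The paralogs thus differed from each other in the direction of the NC value.

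Zmat3 encodes a zinc finger protein that binds RNA and lies on chromosome 3 (32334792 to 32366014, minus strand). It had 29.0 FPKM in ESCs and 21.1 in NCs, a log2 ratio of -0.46. Of its paralogs, Zmat2 (49.1 and 47.6 FPKM) and Zmat5 (25.6 and 24.2 FPKM) were nearly level. Zmat4 was at 1.52 and 0.623 FPKM, and Zmat1 was under 1 FPKM in both conditions.

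The sestrins, which restrain the growth kinase mTORC1 and limit oxidative damage, did not share a direction. Sesn1, on chromosome 10 (41809935 to 41908424, plus strand), had 9.50 FPKM in ESCs and 11.2 in NCs, a log2 ratio of 0.23. Sesn2, a leucine sensor on chromosome 4 (132492032 to 132510501, minus strand), had 35.8 FPKM in ESCs and 25.6 in NCs, a log2 ratio of -0.48. Sesn2 had 3.77 times the FPKM of Sesn1 in ESCs and 2.29 times in NCs. Sesn3, which is not counted among the p53 targets, had 19.6 and 20.01 FPKM. The Sesn2 span holds the annotated transcript Gm12981 over 6089 bases, and that of Sesn1 holds 9930024M15Rik over 2584 bases, both on the same strand, and reads of these could not be set apart here.

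Depth per sample is unknown, and the value of 1 fragment was estimated from low FPKM of genes annotated with 1 transcript. These were read per 1 kb of transcript to which fragments of 200 bases could align. The fullest bin within the range read held 73 of 501 low values in ESCs and 55 of 591 in NCs, so most lay outside it. Its median, 0.0138 FPKM in ESCs and 0.0135 in NCs, was taken as the step of 1 fragment. At this step, and with the median length of each gene's annotated transcripts of any type, the 10 genes stand for about 1645 to 23634 fragments. These numbers and the intervals below depend on that length, which was 919 bases for Mdm2 and 5742.5 for Zmat3. The 95% interval that counting error alone gives to the log2 ratio was -0.25 to -0.05 for Perp, -0.05 to 0.01 for Ccng1, 0.14 to 0.33 for Sesn1 and 0.14 to 0.28 for Phlda3. For Trp53inp1 it was -1.06 to -0.99, which holds the 2-fold limit. These intervals do not cover the spread between the 3 samples of a group, which the table does not give.

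**Figure D3:**
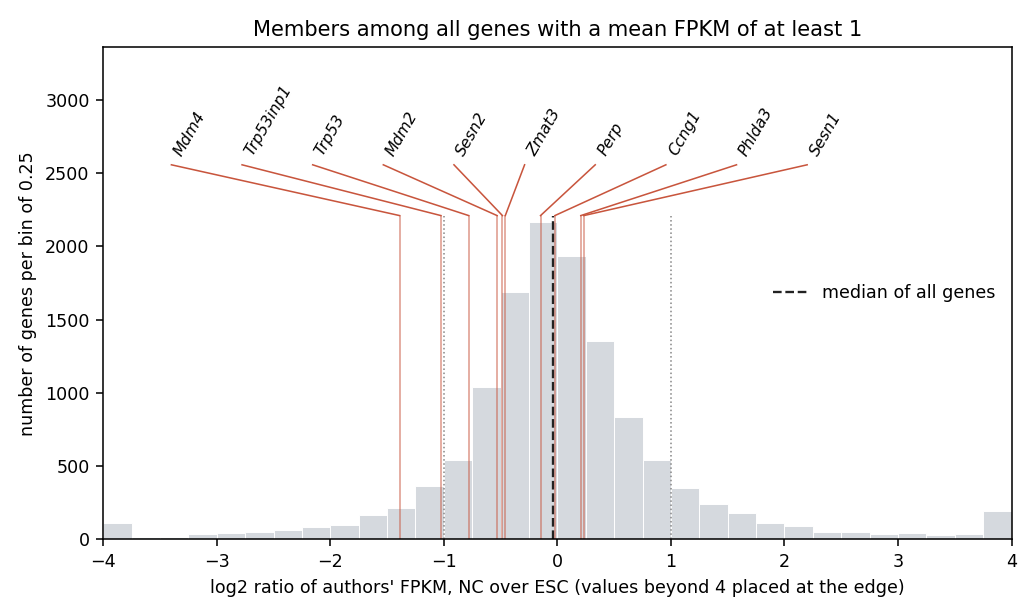
Histogram of the log2 ratio of NC over ESC FPKM for 12785 genes in bins of 0.25, with a red line at the value of each of the 10 genes, a dashed line at the median of -0.04 and dotted lines at 2-fold. Most red lines lie left of the median, and those of Mdm4 and Trp53inp1 lie past the 2-fold line.

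The wider set of p53 target genes was described through 5 lists with 60 genes in all, 8 of which are among the 10 genes. Of these, 58 had a mean FPKM of at least 1, while Fas was below that and Trp53aip1 had no value under the names searched. Of the 58, none was at least 2-fold higher in NCs, against 11.1% of all genes. At least 2-fold lower were 11 of the 58, against 9.93% of all genes. Their median log2 ratio was -0.45, compared with -0.04 for all genes. The FPKM was lower in NCs for 44 of the 58, where 52.4% of all genes were lower. After rescaling to TPM, which moved the median of all genes up by 0.29 on the log2 scale, 36 of the 58 and 32.9% of all genes were lower. Relative to the median of all genes, 43 of the 58 lay below it and 15 above. Without the genes already described, 10 of 50 were at least 2-fold lower and the median was -0.47.

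Among 12 arrest genes, 2 were at least 2-fold lower (16.7%), against 9.93% of all genes. Cdkn1a, which encodes the CDK inhibitor p21, had 55.9 FPKM in ESCs and 33.4 in NCs, a log2 ratio of -0.74, close to that of Trp53. Relative to Trp53 it was at 0.295 times in ESCs and 0.303 times in NCs. Sfn (14-3-3 sigma) had 28.9 FPKM in ESCs and 2.54 in NCs, 11.4-fold lower, and the phosphatase gene Ptprv had 2.33 and 0.554 FPKM. Btg2, an antiproliferative gene, was at 31.6 and 16.5 FPKM (1.92-fold lower), and Gadd45a, a stress sensor, was nearly level at 32.6 and 31.3 FPKM. Plk3 (10.8 and 18.8 FPKM) and Rprm (2.81 and 4.98 FPKM) had the higher value in NCs.

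Among 16 genes of apoptosis, 13 were lower in NCs, where 52.4% of all genes were lower. Under TPM, 10 of the 16 were lower, against 32.9% of all genes. By at least 2-fold, 2 of the 16 (12.5%) were lower, against 9.93% of all genes. Pmaip1 (NOXA), a BH3-only activator of cell death, had 15.5 FPKM in ESCs and 6.14 in NCs, 2.53-fold lower. Bbc3 (PUMA), of the same class, had 37.4 and 21.6 FPKM, 1.73-fold lower. Bax, the pore-forming effector, was abundant in both conditions at 242 and 178 FPKM. Its FPKM was 1.28 times that of Trp53 in ESCs and 1.61 times in NCs. Fas, the death receptor gene, was under 1 FPKM in both conditions at 0.714 and 0.764 FPKM. Beside Phlda3, Shisa5 (13.6 and 14.5 FPKM) and Triap1 (26.4 and 27.8 FPKM) were slightly higher.

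Of 9 genes for DNA repair and nucleotide supply, 8 were lower in NCs, where 52.4% of all genes were lower. Under TPM, 5 of the 9 were lower, against 32.9% of all genes. The 1 gene past 2-fold (11.1% of the list) stood against 9.93% of all genes. This was Fbxo22, a ubiquitin ligase subunit, with 49.7 and 23.9 FPKM. The bypass polymerase genes Polk (10.7 and 5.97 FPKM) and Polh (9.25 and 5.13 FPKM) were 1.79-fold and 1.80-fold lower, while Rrm2b, a subunit of ribonucleotide reductase, was level at 2.65 and 2.69 FPKM. Ddb2, a sensor of ultraviolet damage, had 10.3 and 9.43 FPKM.

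The list of metabolism and stress defence held the most genes past the limit, 6 of 17, all lower in NCs. This was 35.3%, against 9.93% of all genes, and the list had a median log2 ratio of -0.77. Under TPM, 11 of the 17 were lower, against 32.9% of all genes, and the median was -0.48. Gdf15, a secreted stress factor, had 4.91 FPKM in ESCs and 0.363 in NCs. Ddit4 (REDD1), an mTORC1 inhibitor, had 244 and 43.2 FPKM (5.65-fold lower), and Ulk1, an autophagy kinase, 55.9 and 13.5 FPKM (4.14-fold lower). The antioxidant gene Gpx1 was higher in NCs, at 100.0 against 72.6 FPKM in ESCs, and Dram1, a lysosomal gene, was at 1.41 against 1.03 FPKM.

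Of 7 genes that act back on p53, 4 were lower in NCs, where 52.4% of all genes were lower. Trp53inp1 was the 1 past 2-fold (14.3% of the list), against 9.93% of all genes. The median of this list, -0.02, turned positive under the 3 other scalings. Ppm1d (WIP1), a phosphatase that turns p53 off, had 10.8 FPKM in ESCs and 18.6 in NCs, 1.73-fold higher. Among the ubiquitin ligases of this loop, Siah1a (11.9 and 14.8 FPKM) and Cop1, named Rfwd2 in the table (16.7 and 19.5 FPKM), were higher in NCs. Rchy1 (22.2 and 16.9 FPKM) was lower together with Mdm2.

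**Figure D4:**
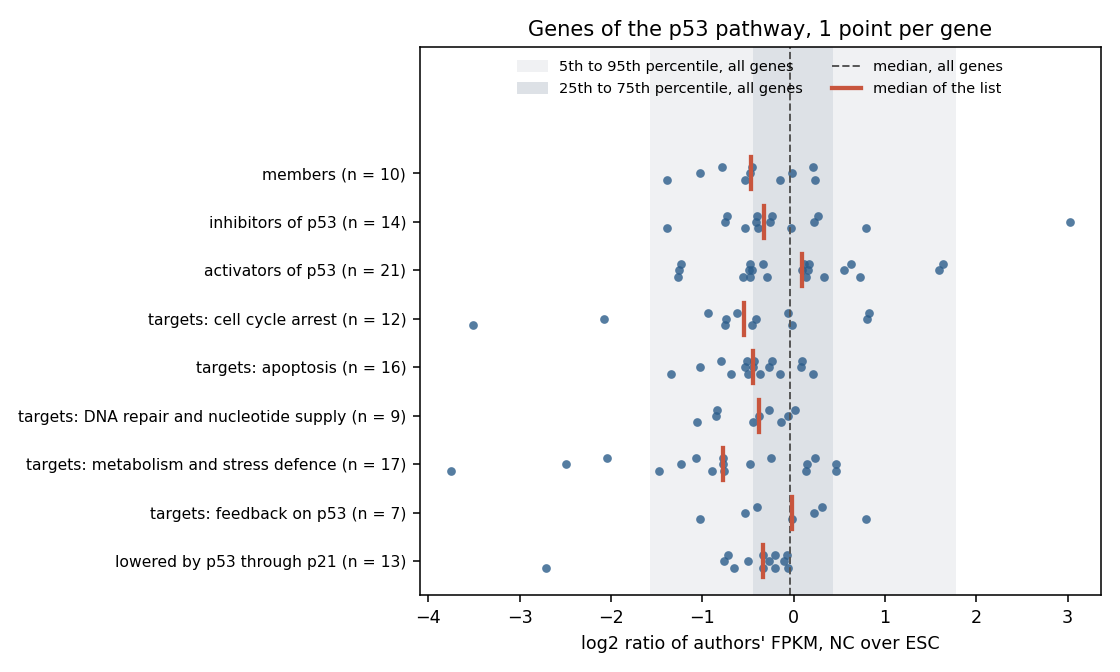
Log2 ratio of NC over ESC FPKM for each gene of the lists with a mean FPKM of at least 1, with 1 point per gene, a red bar at each list's median and grey bands for the percentiles of all genes. The red bars of 4 of the 5 target lists lie left of the dashed median of all genes by more than 0.3, while that of the feedback list lies beside it.

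Regulators of p53 were described through a list of inhibitors and a list of activators. Of 14 inhibitors, 10 were lower in NCs, where 52.4% of all genes were lower. Rescaled to TPM, 7 of the 14 were lower, against 32.9% of all genes. The deubiquitinase gene Usp7 had 93.6 and 56.4 FPKM (1.66-fold lower) and Ppp1r13l (iASPP) 8.79 and 5.23 FPKM (1.68-fold lower). Twist1, a mesenchymal transcription factor that can restrain p53, had 1.76 FPKM in ESCs and 14.4 in NCs (8.15-fold higher), and Smyd2, a methyltransferase of p53, had 20.7 and 24.9 FPKM.

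Of 21 activators, 11 were higher and 10 lower in NCs, where 52.4% of all genes were lower. Rescaled to TPM, 10 of the 21 were lower, against 32.9% of all genes. Cdkn2a, the locus that encodes ARF and the CDK inhibitor p16 in overlapping frames, had 7.80 FPKM in ESCs and 24.2 in NCs (3.10-fold higher), and a gene level does not set the products apart. Hipk2, a kinase of p53, had 3.45 and 10.4 FPKM (3.01-fold higher), and Setd7, a methyltransferase, 9.87 and 16.3 FPKM. In FPKM as deposited, the damage kinases named here were lower in NCs. Chek2 was at 34.3 and 14.4 FPKM (2.39-fold), Chek1 at 24.0 and 17.2 FPKM, Atr at 12.7 and 8.65 FPKM and Atm at 7.92 and 6.44 FPKM. The log2 ratio of Atm, -0.30, was nearly offset by the 0.29 that TPM adds to every ratio. The acetyltransferase gene Kat2b was 2.36-fold lower. Over both lists, 3 of 35 regulators were at least 2-fold higher and 4 of 35 at least 2-fold lower, near the 11.1% and 9.93% of all genes. Rrn3 (2.41-fold lower), a factor of RNA polymerase I whose loss activates p53, and Rybp, a partner of MDM2 that can protect p53, stand on lists that their known roles do not match. Without them 3 of 33 were higher and 3 of 33 lower.

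Of the genes that p53 lowers through p21, mostly of mitosis, 12 of 13 were within 2-fold. All 13 had the lower FPKM in NCs, where 52.4% of all genes did, with a median log2 ratio of -0.34. The 1 gene at least 2-fold lower stood against 9.93% of all genes. It was Mybl2, a transcription factor of proliferating cells, with 229 FPKM in ESCs and 34.9 in NCs. Top2a (265 and 156 FPKM) and Bub1 (62.5 and 38.1 FPKM) came next. Nearly level were Cdc25c (20.6 and 19.8 FPKM), Cdk1 (78.1 and 74.1 FPKM) and Mki67 (40.4 and 37.6 FPKM), which serve entry into and passage through division. After rescaling to TPM, 7 of the 13 were lower, against 32.9% of all genes, and the median was -0.05.

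**Figure D5:**
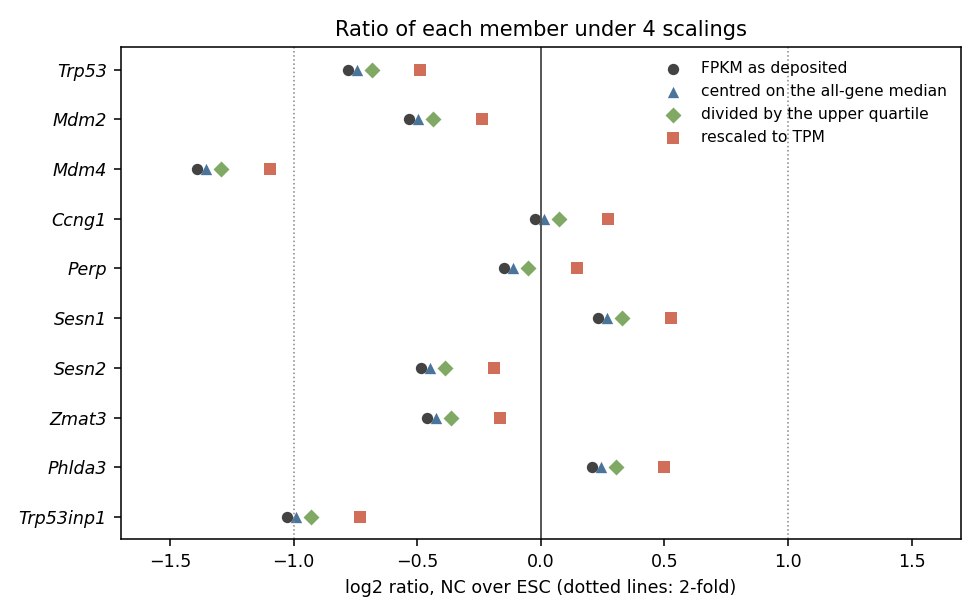
Log2 ratio of NC over ESC for the 10 genes with FPKM as deposited (circles), centred on the median of all genes (triangles), divided by the upper quartile (diamonds) and rescaled to TPM (squares), with dotted lines at 2-fold. Mdm4 is past 2-fold under all 4 scalings, Trp53inp1 only as deposited, and Ccng1 and Perp cross 0.

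The FPKM of all rows sum to 770592 in ESCs and 628679 in NCs, so scaling moves every ratio together. Trp53, Mdm2, Mdm4, Sesn2, Zmat3 and Trp53inp1 were lower in NCs, and Sesn1 and Phlda3 higher, under all 4 scalings run.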

How the data were processed

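RNA was sequenced by the authors from 3 samples of ESCs and 3 of NCs with the TruSeq RNA kit, whose strand setting is not given in the sources used here. Per the labels and the methods, the aligners were Bowtie2 2.1.0 and TopHat2 2.0.8 with mm10, and the authors computed FPKM with Cufflinks 2.0.2, Cuffmerge and Cuffdiff. The deposited table holds 1 FPKM per gene and condition. Although the header of the second column lacks the final letter (FPK), it was used as FPKM. The table also holds the authors' own comparison (log2 fold changes, test statistics, p-values and q-values), which was not used. The depth per sample is unknown.

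Ratios were computed without a pseudocount, and counts and medians over genes used those with a mean FPKM of at least 1. Rows of 1 name were summed. Genes and lists were chosen with earlier results of these data known. Named were the 10 genes, canonical partners and paralogs fixed by name, up to 3 examples of each marker list, and in each list the 3 with the highest and the 3 with the lowest ratio. Positions came from GENCODE M21 (GRCm38). Trp53aip1 and Foxm1 were on the lists but had no value under the names searched, so they were not analysed here. The way of reading the value of 1 fragment, and leaving out Rrn3 and Rybp, were chosen after the data were seen. Python 3.11.15 with numpy 2.4.6, pandas 2.3.3 and matplotlib 3.10.9 was used. The alternatives were a 1.5-fold limit, pseudocounts of 0.1 and 1, other scalings and filters, and the highest row of a name.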

Additional observations from a re-analysis of the deposited data

How the results depend on the processing

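The count of the 10 genes at least 2-fold lower in NCs was 2 and became 1, that of Mdm4, after median centring, after rescaling to TPM and after division by the upper quartile. With a 1.5-fold limit, which 18.8% of all genes passed as lower and 19.3% as higher, 23 of 58 targets were lower and 3 higher, 6 of 35 regulators were lower and 6 higher, and 4 of 13 genes lowered through p21 were lower. With the 2-fold limit after rescaling to TPM, 7 targets were lower and 3 higher, and 1 regulator was lower and 5 higher. This scaling moved all log2 ratios up by 0.29. The shares of all genes past 2-fold were not counted under centring, TPM or the upper quartile. The 2-fold counts under these scalings therefore stand without a background share. The pseudocounts, the filters and the highest row of a name kept every count of genes past 2-fold within 1.5 times. The log2 ratio of Ccng1 turned to 0.0141, 0.27 and 0.0748 under centring, TPM and the upper quartile, and that of Perp to 0.15 under TPM. The median of the feedback list took the same 3 values as Ccng1, its middle gene. The median of the paralogs was -0.04 and turned to 0.25 under TPM, 0.0520 under the upper quartile and 0.0192 both with no filter and with at least 1 FPKM in both conditions. The median of the trophectoderm markers was 0.56 and turned to -1.16 with at least 1 FPKM in both conditions, which leaves fewer genes. No other log2 ratio of the 10 genes changed direction. No sample could be left out. No paired analysis was possible because the table holds 1 value per condition.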
